A study of Mus musculus with 6 samples.

Results

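The genes described here encode the proteins of the cytosolic ribosome. They were taken by symbol from a deposited comparison of mouse cortical cells that received an shRNA against Nat14 with cells that received a control shRNA. Of 21937 symbols in the table, 97 began like a ribosomal protein symbol. From these, 10 genes with Rps6k symbols, 2 numbered pseudogenes and 7 genes named as "like" a ribosomal protein were left out. This left 78 members. Of the 78, 46 belong to the large subunit (Rpl and Rplp symbols) and 30 to the small subunit (Rps symbols). The other two match the symbol rule only: Rps19bp1 encodes a protein that binds Rps19, and Rps4y2 is listed by RefSeq as a transcribed pseudogene, Rps4l. The 76 ribosomal protein genes lie on 19 chromosomes, with 14 of them on chromosome 7 and 4 on the X chromosome.

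The shNat14 group and the NTC control group had 3 libraries each. In both, plasmids were injected into the lateral ventricle of mouse brains at embryonic day 14.5 and electroporated, and living GFP-positive cells of the dissected cortex were sorted at embryonic day 18.5. All libraries thus come from cells that went through electroporation and carried a plasmid, and the labels name no untreated group. Strain, sex, litter, the promoters and the carrier of GFP are not stated, nor is it stated that each library is a separate embryo. The p-values therefore cover the variation among these 3 and 3 libraries, and part of it may be technical. The labels call the cells cortical cells and name no cell type within the cortex.

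The table holds the authors' own comparison, with a fold change, a mean level over all libraries and a p-value per gene. It has no values per library, so no gene can be shown sample by sample, the depth is unknown and no SD is given. Its header does not state the direction of the fold change. The direction was read from Nat14, the target of the shRNA, at a log2 fold change of -3.31 by the authors' deposited table (adjusted p = 1.2e-08), so that positive values mean higher in shNat14. Nat14 therefore cannot serve as a check of the labels.

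A ribosome is built from a small subunit, which reads the mRNA, and a large subunit, which joins amino acids and passes the chain through an exit tunnel. Each protein is needed in about the same number of copies, and the genes are known for being transcribed together at high rates in growing cells. Their mRNAs typically begin with a run of pyrimidines, the 5′ terminal oligopyrimidine tract, through which the kinase complex mTORC1 and the RNA-binding protein Larp1 set how strongly they are translated. In the developing cortex, progenitors and young neurons both make ribosomes. Mammalian genomes also hold many processed pseudogenes of these genes, which are copies of their mRNAs inserted elsewhere.

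Pyrimidine runs could be seen near the annotated start sites of many members. RefSeq promoter entries (GRCm38.p6) of 250 bases before to 50 bases after the start were matched for 56 of the 76 ribosomal protein genes. Among the genes not matched were Rpl17, Rpl21, Rpl23a, Rpl29, Rpl3, Rpl30, Rpl32, Rpl36, Rpl7, Rpl8, Rplp1, Rps14, Rps20, Rps27a and Rps29. Windows of 30 bases around the run are shown for 7 members named further on, to show what the run looks like. They are written 5′ to 3′ along the gene, with the longest run of C and T within 20 bases of the annotated start in capitals.
Rplp2, at chr7:141447636-141447665 on the plus strand: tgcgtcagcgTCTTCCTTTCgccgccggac
Rps6, at chr4:86857349-86857378 on the minus strand: ggaagtcgggCCTCTTTTTCgtgacgcctc
Rpl13, at chr8:123102324-123102353 on the plus strand: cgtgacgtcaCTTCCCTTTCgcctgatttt
Rps18, at chr17:33955648-33955677 on the minus strand: gtcacttccgCTCTCTCTTCCacaggaggc
Rpl5, at chr5:107900497-107900526 on the plus strand: gcctacagccaCTCTTTCTCacgtcgcttg
Rplp0, at chr5:115559466-115559495 on the plus strand: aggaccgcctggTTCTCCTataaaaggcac
Rps2, at chr17:24720055-24720084 on the plus strand: cgagatctcgcgCTTCTTggagcactataa
The run had 11 bases in Rps18, 10 bases in Rplp2, Rps6 and Rpl13, 9 bases in Rpl5, 7 bases in Rplp0 and 6 bases in Rps2. Counted from the annotated start, its first base lay at -1 in Rps6, -2 in Rps18, -5 in Rplp2, -16 in Rpl13 and -20 in Rpl5. In Rps2 it lay at 5 and in Rplp0 at 12. A run near the annotated start is therefore not shown to be the 5′ terminal tract of the mRNA.

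Over the 56 genes the longest run had a median of 7 bases and reached 21 bases in Rpl7a, against a median of 5 bases over 27025 promoter entries of all genes. A run of at least 8 bases was found in 26 of the 56 members, or 46.4%, against 15.8% of all promoter entries. Runs were cut at the edges of the window. With runs followed past these edges, an alternative added after the data were seen, the counts were 28 of 56 members (50%) and 20.7% of all entries. Annotated starts can lie some bases away from the start a cell uses, so a run outside this window is not counted. Short words were also searched in the whole window on both strands. CCGGAA, the core of sites for ETS factors, was present in 28 of 56 members (50%) and in 15.4% of all promoter entries. AAGATGG, part of a site for the factor YY1, was present in 8 members (14.3%) and in 6.46% of all entries. TATAAA, the TATA word, was present in 5 members (8.93%), against 14.2% of all entries. The first 2 words can share bases where they adjoin, and 3 members held both. A match is a description of the letters and not evidence of a bound factor.

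**Figure D1:**
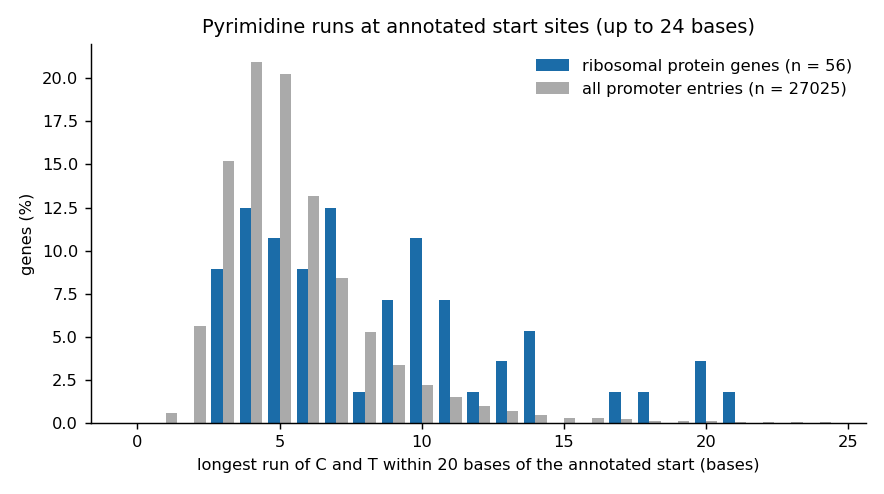
Longest run of C and T within 20 bases of the annotated start (horizontal axis, bases) in 56 ribosomal protein genes (left bar of each pair) and in 27025 promoter entries of all genes (right bar), as a percentage of each set (vertical axis). Runs of 8 bases or more were found in 46.4% of the ribosomal protein genes and in 15.8% of all entries.

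The comparison asked whether cells with the Nat14 shRNA differed from control cells in mRNA of the ribosomal proteins. No difference was detected. At adjusted p under 0.05, 0 of the 78 members were called higher and 0 lower by the authors' deposited table, which comes from a test that the sources used here do not name for certain. Over all symbols 34 genes were called, or 0.155%, with 0.0547% higher and 0.1% lower. At so small a share, a count of 0 among 78 genes says little about the members. At unadjusted p under 0.05 the count of members was also 0, against 5.04% of all genes in the table and 5.86% of genes at log2 CPM 4 to 10. At unadjusted p under 0.1 it was 1, the pseudogene Rps4y2, against 8.98% of all genes. CPM is a count scaled to the size of its library, and this range of levels holds most of the members. Every member had an adjusted p of 1 by the authors' deposited table.

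The fold changes lay close to 0 and were split between both directions. Of the 77 members above the lowest level of the table, 35 were above 0 and 42 below it, and the median log2 fold change was -0.03, computed from the authors' deposited table. For all 17400 genes above the lowest level the median was 0.00, with 47.6% below 0. A total of 70 ribosomal protein genes had a mean level between 4.47 and 9.42 log2 CPM, and these are called well counted from here on. Their log2 fold changes ran from -0.30 to 0.38 by the authors' deposited table, with quartiles at -0.12 and 0.12. All 70 thus lay within 0.5 of 0, as did 85.7% of the 7375 genes at log2 CPM 4 to 10. With 3 libraries a group and genes that share all libraries, these 70 values are not independent measurements of the ribosome.

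The error of each fold change had to be approximated, since the table gives none. The size of the fold change was divided by the normal quantile of its two-sided p-value, and the median of this approximate standard error over the 70 well-counted members was 0.30 on the log2 scale. At that error a log2 difference of 0.59, or 1.5-fold, would have reached an unadjusted p of 0.05. A difference of 1.19, or 2.28-fold, would have reached the largest p that was called anywhere in the table (7.65e-05). A shift of all ribosomal protein mRNAs by less than this could therefore have gone uncalled gene by gene. The spread among the members was smaller than their errors, with an SD of 0.16 across the 70 log2 fold changes.

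**Figure D2:**
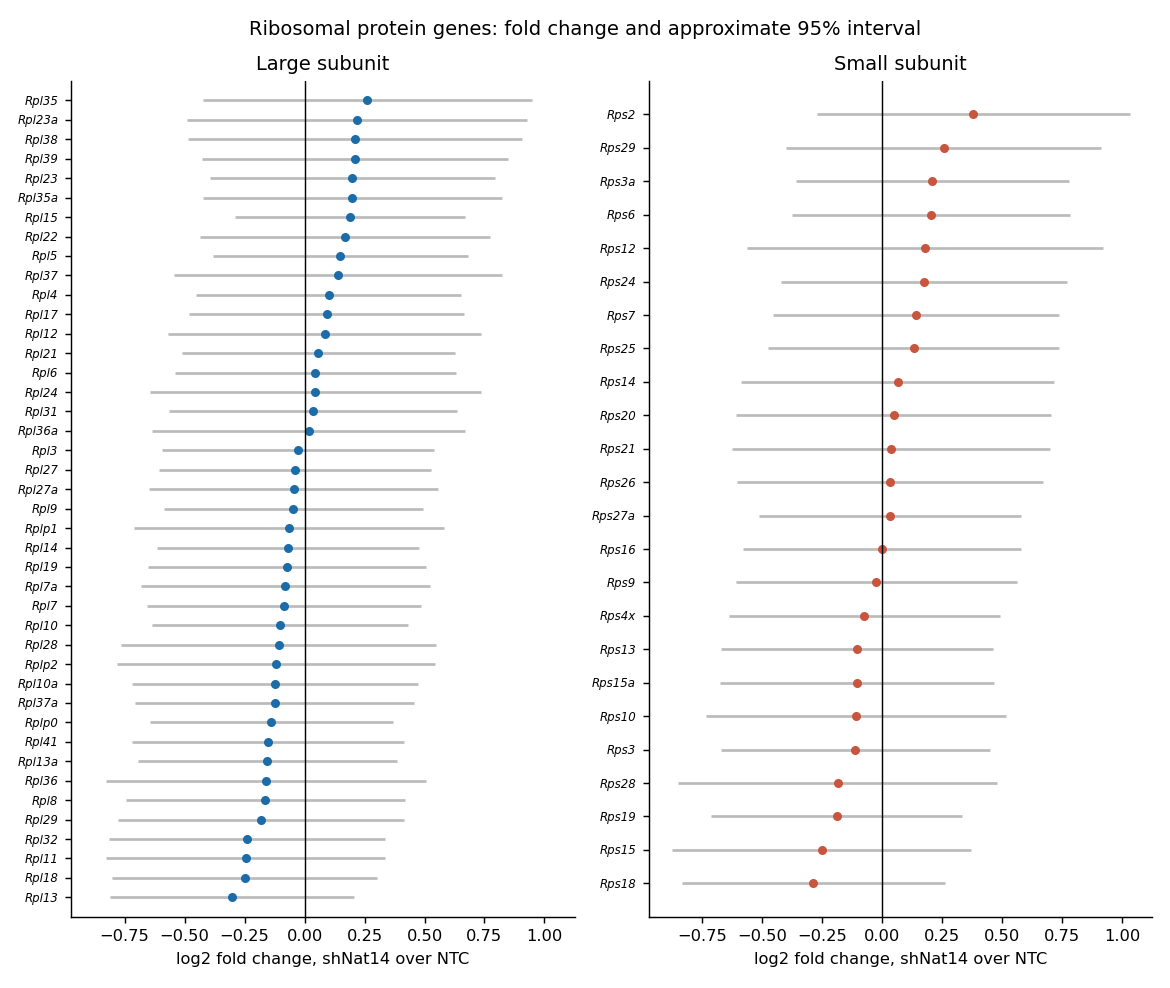
Log2 fold change of shNat14 over NTC (horizontal axis, points) for large-subunit and small-subunit genes at log2 CPM 4 to 10, a few left out, sorted by value, with approximate 95% intervals made from the deposited p-values (bars). Points run from -0.30 for Rpl13 to 0.38 for Rps2, and all bars drawn cross 0.

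Large and small subunits did not stand apart. The 42 well-counted genes of the large subunit had a median log2 fold change of -0.05, computed from the authors' deposited table, with 18 above 0 and 24 below. The 28 of the small subunit had a median of 0.01, with 14 above 0 and 14 below. Weighted by level, the mean log2 fold change of the 70 genes was 0.01. Summed levels rebuilt from the mean and the fold change of each gene came to 10196 CPM in shNat14, against 10121 CPM in NTC, a ratio of 1.01. All 7375 genes at log2 CPM 4 to 10 summed to 767223 CPM in shNat14 and 727855 CPM in NTC, a ratio of 1.05. In mean level the 75 ribosomal protein genes above the lowest level made up 1.01% of the summed CPM of all genes.

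Among members at or above the median level of all genes, the highest fold changes were those of Rps2, Rpl35, Rps29, Rpl23a and Rpl38. Rps2, which lines the mRNA entry channel of the small subunit, had the largest value among well-counted members, 0.38 on the log2 scale by the authors' deposited table (p = 0.253), or 1.30-fold. Its approximate 95% interval ran from -0.27 to 1.03. Rpl35, at the exit of the tunnel in the large subunit, stood at 0.26 by the authors' deposited table (p = 0.455), as did the small zinc-binding protein Rps29 (p = 0.443). Rpl23a, a docking site for factors that meet the growing chain, stood at 0.22 by the authors' deposited table (p = 0.544). Rpl38, known from mouse mutants with altered patterning of the axial skeleton, was at 0.21 by the authors' deposited table (p = 0.554). Rpl15, a structural protein of the large subunit, had the second smallest p of those above 0, with 0.19 by the authors' deposited table (p = 0.435). Rps6, the classical substrate of the S6 kinases, stood at 0.20 by the authors' deposited table (p = 0.491). All of these values are smaller than the difference that their errors could have resolved.

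At the other end, the lowest fold changes were those of Rpl13, Rps18, Rps15, Rpl18 and Rpl11. Rpl13, a large-subunit protein, had the smallest p of all 76 ribosomal protein genes, with a log2 fold change of -0.30 by the authors' deposited table (p = 0.244) and an approximate 95% interval from -0.81 to 0.21. Rps18, a protein of the small subunit's head, stood at -0.29 by the authors' deposited table (p = 0.303). Rps15, whose tail reaches towards the decoding site, was at -0.25 by the authors' deposited table (p = 0.427), and Rpl18 was also at -0.25 (p = 0.375). Rpl11 stood at -0.25 by the authors' deposited table (p = 0.407). Again every interval reached past 0.

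Rpl11 and Rpl5 form a particle with the 5S rRNA that can bind and block Mdm2, the ligase that degrades p53. Rpl5 had the highest mean level of all members, 9.42 log2 CPM, and a log2 fold change of 0.15 by the authors' deposited table (p = 0.581). The values of Rpl5 and Rpl11 lay on opposite sides of 0, by less than their errors. The stalk proteins Rplp0, Rplp1 and Rplp2, which recruit the GTPases of translation, stood at -0.14, -0.06 and -0.12 by the authors' deposited table (p = 0.592, 0.848 and 0.724). The 3 stalk genes thus shared a sign at values far inside their errors. Rps27a, made as a fusion with ubiquitin, stood at 0.03 by the authors' deposited table (p = 0.912).

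The 4 X-linked members were examined because Xist, the RNA of the inactive X chromosome, was called higher, with 5.12 on the log2 scale by the authors' deposited table (adjusted p = 0.0112). Sex is not stated for either group, and whether the groups differed in sex was not tested. Rpl10, which helps to form the site where tRNAs bind, was at -0.10 and Rps4x, of the small subunit, at -0.07 by the authors' deposited table (p = 0.704 and 0.797). Rpl36a stood at 0.02 and Rpl39, a small protein lining the exit tunnel, at 0.21 by the authors' deposited table (p = 0.957 and 0.519). None of the 4 differed beyond its error, and they lay on both sides of 0.

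Further groupings by role held no called gene, where 0.155% of all symbols were called. Among 8 proteins of the exit tunnel, 7 were above 0 and 1 below, with a median log2 fold change of 0.14 and a smallest p of 0.455, from the authors' deposited table. Among 9 proteins of the decoding site and the mRNA channel, 4 were above and 5 below 0, with a median of -0.02. Of 9 members known from Diamond-Blackfan anaemia, a human disorder of red cell production, 5 were above and 4 below 0, with a median of 0.03. The 6 members with known patterning or pigment phenotypes in mouse mutants, among them Rps19, Rps20 and Rpl24, had a median of 0.05, with 4 above and 2 below 0. No gene in these groupings had an unadjusted p under 0.05.

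P-values of the well-counted members were seldom small. Of the 70, 1 (1.43%) had an unadjusted p under 0.25 by the authors' deposited table, against 25.6% of all genes at log2 CPM 4 to 10. Between 0.25 and 0.5 lay 18.6% of the members, between 0.5 and 0.75 lay 42.9% and above that 37.1%. All genes of this range were spread almost evenly over these 4 bins, with 24.2% to 25.6% in each. Other housekeeping complexes lay between. Of 75 mitochondrial ribosomal proteins, which serve the ribosome inside mitochondria, 13.3% had a p under 0.25, of 76 nuclear genes of oxidative phosphorylation 17.1%, and of 35 proteasome subunits 14.3%. Their SDs of log2 fold change, 0.30, 0.25 and 0.22, were wider than the 0.16 of the cytosolic ribosome, at median approximate errors of 0.32, 0.32 and 0.28. These sets were described and not tested against each other, since genes of a complex share their libraries.

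**Figure D3:**
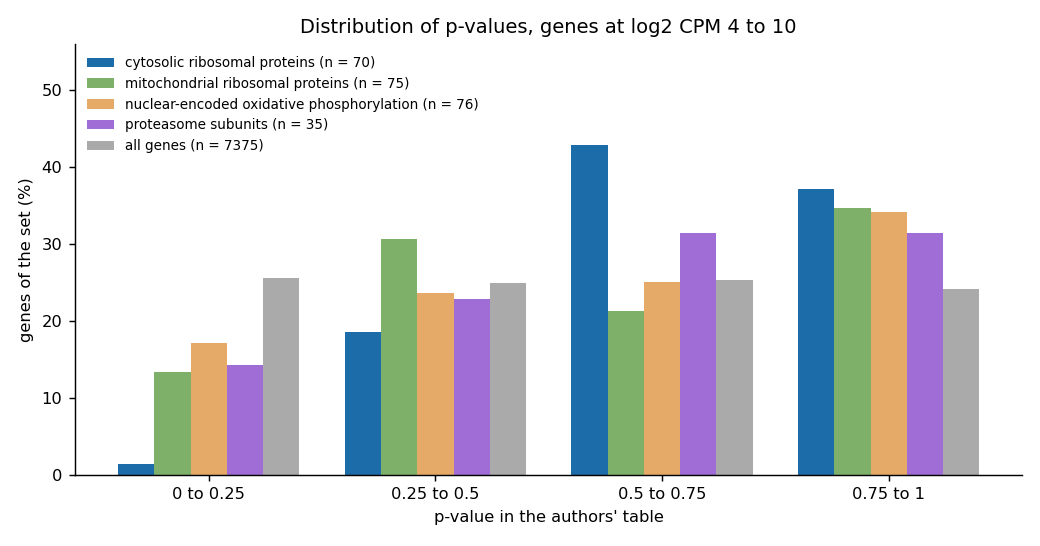
Percentage of genes (vertical axis) in 4 bins of the deposited p-value (horizontal axis) for 70 cytosolic ribosomal protein genes, 75 mitochondrial ribosomal proteins, 76 nuclear genes of oxidative phosphorylation, 35 proteasome subunits and all 7375 genes at log2 CPM 4 to 10. The lowest bin holds 1.43% of the cytosolic ribosomal proteins, between 13.3% and 17.1% of the other complexes and 25.6% of all genes.

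Levels within the ribosome were uneven, although its proteins are needed in like numbers. Per kb of coding length, the mean level of the 70 well-counted genes ran from 5.79 log2 CPM per kb in Rps12 to 10.89 in Rpl41, which encodes the shortest protein of the ribosome, with a median of 7.83. The division used coding bases only, without the untranslated parts of the mRNA, so it raises genes with short coding sequences. Rpl41, with 78 coding bases, stood at 7.21 log2 CPM before it, near the median of 6.72 of the 70 genes. Another 6 ribosomal protein genes stood far below these 70. Rpl34 was at 3.31, Rpl30 at 2.60, Rps27 at 2.59 and Rps23 at -0.24 log2 CPM per kb, and Rpl26 was listed at the lowest level of the table. As mean levels before division by length, the low genes other than Rpl26 ran from 1.81 log2 CPM in Rpl34 to -1.45 in Rps23 by the authors' deposited table. No ribosomal protein gene lay between 1.81 and 4.47 log2 CPM.

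At these low levels the fold changes were wide and their errors wider. In the authors' deposited table Rps23, of the decoding site, had a log2 fold change of 1.22 (p = 0.499), with an approximate 95% interval from -2.31 to 4.75. Rpl30, an RNA-binding protein at the interface of the subunits, was at 0.51 by the authors' deposited table (p = 0.482). Rps27, a zinc-binding protein of the small subunit, was at -0.43 and Rpl34 at 0.13 by the authors' deposited table (p = 0.506 and 0.819). A fitted fold change at such levels can depend on the prior count of the fit, which is uncertain here. The wide errors of these members leave their changes poorly bounded. Rpl26 has no usable fold change. The pseudogene Rps4y2 had the smallest p of the 78 members, at a log2 fold change of -0.98 and a mean level of 1.41 log2 CPM by the authors' deposited table (p = 0.091). Rps19bp1, which is not part of the ribosome, was at -0.02 by the authors' deposited table (p = 0.946).

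**Figure D4:**
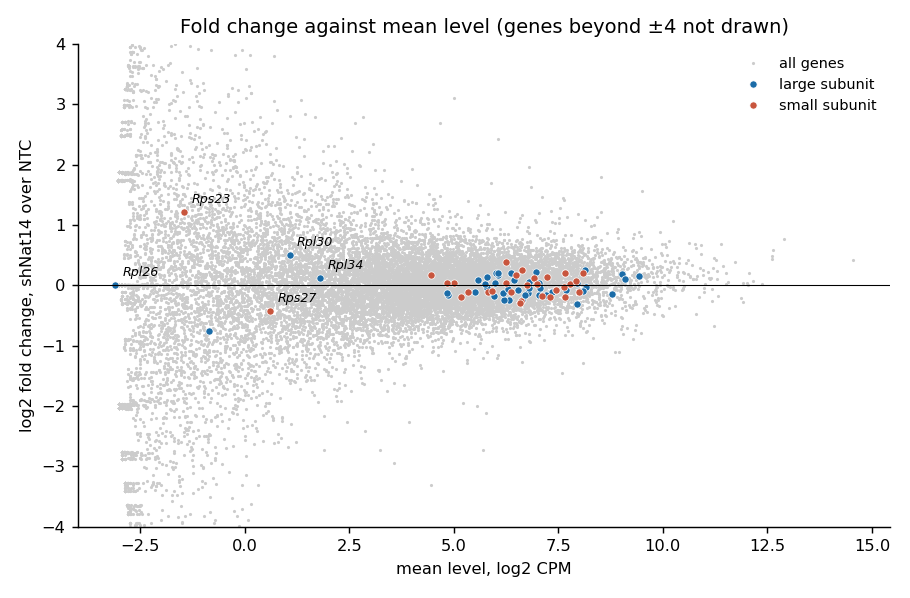
Log2 fold change of shNat14 over NTC (vertical axis) against mean level in log2 CPM (horizontal axis) for all genes (grey) and for ribosomal protein genes of the large and small subunit (coloured); genes beyond 4 in either direction are not drawn. The 70 well-counted members form a band from -0.30 to 0.38, and 6 members lie apart at low levels.

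Ribosomal protein mRNAs share long stretches of sequence with other loci, which bears on how their reads could be counted. For each gene the coding sequence of its GENCODE M21 transcript (GRCm38) was read in windows of 50 bases, and each window was looked for in the transcripts of all other loci, pseudogenes included. A median of 90.8% of windows per ribosomal protein gene were also present at another locus, against 0% for the median of 16312 coding genes. At least 50% of windows were shared in 65 of the 76 members (85.5%) and in 3.87% of all coding genes. In 28 members every window was shared. With windows of 100 bases the median was 73.1%, and 22 members shared every window. Windows of Rpl7a were found at 120 other loci, those of Rpl29 at 82, of Rpl21 at 81 and of Rps2 at 71, most of them annotated as pseudogenes. Few windows were shared in Rps3, of the mRNA entry channel, at 8.05%, and in Rpl8, at 8.69%. How long the reads were, and what was done with reads that matched several loci, is not given in the sources used here. Levels and fold changes of the members that share sequence are for this reason uncertain.

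The share of such windows did not order the members by level. Over the 76 genes, the 6 low ones shared between 71.5% and 100% of their windows, with a median of 88.0%, against a median of 91.5% for the 70 well-counted ones. Spearman's rho across the 75 genes above the lowest level was -0.03 between the share and the level per kb, as a description over genes of the same libraries. The 26 well-counted members with every window shared had log2 fold changes from -0.30 to 0.26, with a median of 0.01, computed from the authors' deposited table. The 11 with under 50% shared ran from -0.25 to 0.17, with a median of -0.11.

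**Figure D5:**
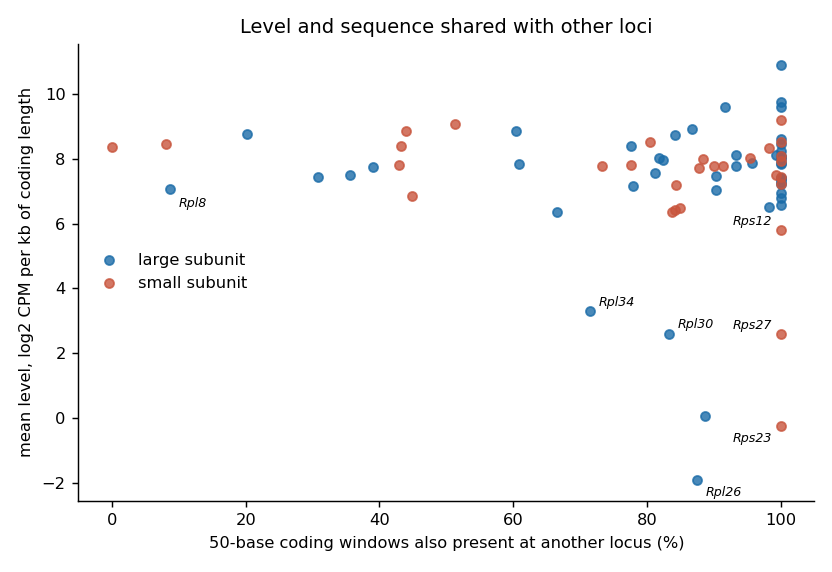
Mean level in log2 CPM per kb of coding length (vertical axis) against the percentage of 50-base coding windows that also occur at another locus (horizontal axis) for 76 ribosomal protein genes, coloured by subunit. The 6 low members, among them Rpl34, Rpl30, Rps27, Rps23 and Rpl26, share 71.5% to 100% of their windows, as do most members at high levels.

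Pairs of close paralogs show how such sharing differs from gene to gene. Rps27 has a paralog, Rps27l, known as a p53 target, and a copy without introns, Rps27rt, listed in the table under its older symbol Gm9846. The coding sequences are shown because the levels of the 3 differ so widely. Capitals mark the bases that differ between Rps27 and Rps27l.
Rps27, gene at chr3:90212522-90213651 on the minus strand: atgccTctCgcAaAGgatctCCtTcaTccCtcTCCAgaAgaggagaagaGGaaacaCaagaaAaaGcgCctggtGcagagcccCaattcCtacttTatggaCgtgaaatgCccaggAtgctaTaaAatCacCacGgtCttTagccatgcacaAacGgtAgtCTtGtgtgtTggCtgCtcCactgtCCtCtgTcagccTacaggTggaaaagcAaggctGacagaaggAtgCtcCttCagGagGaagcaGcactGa
Rps27l, gene at chr9:66946086-66949516 on the plus strand: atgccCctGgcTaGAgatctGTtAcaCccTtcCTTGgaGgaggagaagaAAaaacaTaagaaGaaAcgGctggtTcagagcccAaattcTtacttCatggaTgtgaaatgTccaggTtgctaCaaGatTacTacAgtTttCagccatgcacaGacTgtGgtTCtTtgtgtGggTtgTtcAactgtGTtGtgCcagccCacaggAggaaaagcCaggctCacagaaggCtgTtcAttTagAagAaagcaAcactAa
The sequences differ at 61 of 255 bases and the proteins at 3 of 84 residues, and the longest identical stretch has 11 bases. Rps27 and Rps27rt, at chr9:114982366-114982739 on the minus strand, differ at 0 of 255 bases. Rps27l stood at a mean level of 7.03 log2 CPM and a log2 fold change of 0.30 by the authors' deposited table (p = 0.295). Rps27 was at 0.61 log2 CPM, and Gm9846 was listed at the lowest level. The genes with the identical coding sequence were thus both low, and the paralog that differs throughout was as high as other ribosomal protein genes. Most members did not follow these chosen genes, since 26 with every window shared were well counted. Why Rps27 was low was not tested.

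Rpl36a on the X chromosome (gene at chrX:134585654-134588062 on the plus strand) and its autosomal paralog Rpl36al (gene at chr12:69182731-69184083 on the minus strand) encode the same protein of 106 residues, from coding sequences that differ at 39 of 321 bases. Their longest identical stretch has 24 bases. Mean levels by the authors' deposited table were 5.74 log2 CPM for Rpl36a and 5.89 for Rpl36al, and log2 fold changes were 0.02 and 0.19 (p = 0.957 and 0.608). Rpl22 and Rpl22l1 also lay near each other, at log2 fold changes of 0.17 each by the authors' deposited table (p = 0.583 and 0.562). Rpl7l1, related to Rpl7 and thought to act in ribosome assembly, stood at -0.21 by the authors' deposited table (p = 0.41). Rpl3l, the muscle form of Rpl3, and Rpl39l, the testis form of Rpl39, were at -2.61 and -3.01 log2 CPM, and Rpl10l, the testis form of Rpl10, was listed at the lowest level. These forms of other tissues were thus near or at the bottom of the table.

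Ribosomal proteins with other symbols were also near 0. Rpsa stood at -0.09, Fau, which carries Rps30, at -0.07 and Gnb2l1, the scaffold protein Rack1, at -0.06 by the authors' deposited table (p from 0.731 to 0.839). All 3 were below 0 by less than their errors.

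Factors that make, regulate or use ribosomes were described from lists in the same way, and 0 genes of these lists were called. The share called over all symbols was 0.155%, so a count of 0 says little about lists of this size. Of 37 initiation factors, 17 were above and 20 below 0 with a median log2 fold change of -0.04, and Eif1a, which helps to scan for the start codon, had the smallest p, at 0.52 by the authors' deposited table (p = 0.0404). Of 13 elongation and termination factors, 8 were above 0, and Eef2, the translocase, had the smallest p, at -0.54 by the authors' deposited table (p = 0.05). The 20 other mRNAs known to start with a pyrimidine tract, Eef2 among them, had a median of 0.06, with 11 above and 9 below 0. In the list of ribosome assembly 42 of 68 genes were above 0, with a median of 0.06. At unadjusted p under 0.05 there were 3 higher and 1 lower, where 6.35% of all genes above the lowest level also lay. Imp4, a protein of early small-subunit assembly, had the smallest p of this list, at -0.73 by the authors' deposited table (p = 0.0085, adjusted p = 0.617).

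The 10 genes with Rps6k symbols are named after Rps6, but not all encode kinases known to phosphorylate it. Of these 10 genes, 2 had an unadjusted p under 0.05, both higher in shNat14, and 0 were called. Over all genes above the lowest level, 6.35% had such a p, and 0.155% of all symbols were called. Rps6ka5, a nuclear kinase of histones and CREB also named Msk1, stood at 1.15 on the log2 scale by the authors' deposited table (p = 0.000396, adjusted p = 0.126). Rps6ka3, the X-linked kinase Rsk2, stood at 1.09 by the authors' deposited table (p = 0.0173, adjusted p = 0.777). Rps6kb1, the S6 kinase downstream of mTORC1, was at 0.13 by the authors' deposited table (p = 0.605). Among 25 regulators of mTORC1 and of pyrimidine-tract mRNAs, Rragb, an X-linked GTPase that signals amino acids to mTORC1, had the smallest p, at -1.71 by the authors' deposited table (p = 0.000929, adjusted p = 0.212). It was the single gene of these 25 under 0.05, beside the same 6.35% of all genes above the lowest level.

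Genes linked to ribosomal stress and p53 were spread on both sides of 0. Of 20 genes, 8 were above and 12 below 0, with a median log2 fold change of -0.11. Plk2, a kinase induced by p53, stood at 0.86 by the authors' deposited table (p = 0.00109, adjusted p = 0.231). Trp53 itself was at -0.63 by the authors' deposited table (p = 0.0383, adjusted p = 0.966). These were the only genes of the list with an unadjusted p under 0.05, and they lay in opposite directions. The share under 0.05 over all genes above the lowest level was 6.35%.

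Marker lists of cell types show how the cells of both groups compared. In bulk samples, fewer cells of a type and less RNA per cell cannot be told apart. Of 14 astrocyte markers 11 were below 0, and their summed level rebuilt from the authors' deposited table was 1967 CPM in shNat14, against 2828 CPM in NTC. The called gene among them was Agt, at -6.33 and a low level by the authors' deposited table (adjusted p = 6.99e-06). Of 13 microglia markers 11 were below 0, with sums of 43.0 CPM in shNat14 and 89.5 CPM in NTC, and C1qb had the smallest p, at -1.62 (p = 0.00169) by the authors' deposited table. Of 10 choroid plexus markers 8 were above 0, with sums of 600.5 CPM in shNat14 and 180.4 CPM in NTC. Most of these sums came from Ttr, at 1.80 by the authors' deposited table (p = 0.065) and a mean level of 8.52 log2 CPM. The other markers of the list had mean levels up to 2.91 log2 CPM. Endothelial markers summed to 27.2 CPM in shNat14 and 14.9 CPM in NTC, with 8 of 10 above 0. Emcn stood at 4.98 by the authors' deposited table (p = 0.0137), at a low mean level of -0.21 log2 CPM. Red blood cell markers summed to 5.86 CPM in shNat14 and 13.3 CPM in NTC, with Hba-a1, Hba-a2 and Hbb-b2 at the lowest level. Hba-x stood at -6.53 by the authors' deposited table (p = 0.00832), at a low mean level of -1.36 log2 CPM. Of 11 cortical neuron markers 4 were above and 7 below 0, with a median log2 fold change of -0.12 and sums of 6492 CPM in shNat14 and 6316 CPM in NTC. Their smallest p was that of Stmn2, whose log2 fold change was 0.45 by the authors' deposited table (p = 0.0906). Of 10 progenitor markers 4 were above and 6 below 0, with a median of -0.10 and sums of 2646 CPM in shNat14 and 2875 CPM in NTC. Their smallest p was that of Eomes, whose log2 fold change was -0.54 by the authors' deposited table (p = 0.144). An unadjusted p under 0.05 was found for 5 of the 14 astrocyte and 6 of the 13 microglia markers, all lower in shNat14. It was also found for 2 red blood cell markers, both lower, and 2 endothelial markers, both higher. Choroid plexus, cortical neuron and progenitor markers had 0, and the share over all genes above the lowest level was 6.35%. Any part of these cell types in the values of the ribosomal protein genes was not tested.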

How the data were processed

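The members, lists and groupings were chosen with earlier results of these data known. The table used holds 1 row per gene symbol. Its columns, per the file headers, are the authors' log2 fold change, their log2 CPM averaged over libraries, and the p-value with its false discovery rate. HTSeq 0.5.4p1, TopHat2 2.0.8, SAMtools 0.1.19 and DESeq are listed in the submitters' processing notes, with the human build hg19, although samples and symbols are mouse. The build behind the table is therefore unresolved, and coordinates given are those of the reference, GRCm38. The column names are those of another count package than the notes list, so the test, its filters and its prior count are uncertain, and the depth is unknown. The count test planned in case of counts per library was not run.

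Genes were called at an adjusted p under 0.05 over the whole table. In all 4537 symbols sat at the lowest level, log2 CPM -3.09, and no reported median of fold changes includes them, except under 1 alternative. The range of log2 CPM 4 to 10 was chosen after the data were seen. Approximate standard errors are the absolute fold change over the normal quantile of p. A run on simulated data with normal errors checked only this arithmetic, not whether it holds for the authors' test. Summed levels per group assume that the mean level is the average of both groups. Named genes are the 5 highest and 5 lowest fold changes at or above the median level, the 3 smallest p in each direction, the highest and lowest level, members with listed roles, all paralogs and the leading gene of each list. Others, such as Rpl7a and the low members, were chosen after their values were seen. Some genes are counted in the totals but not reported here by name. Promoters are RefSeq's, transcripts GENCODE's, with 1 transcript per gene. Python 3.11.15, numpy 2.4.6, pandas 2.3.3, scipy 1.17.1, Biopython 1.88 and matplotlib 3.10.9 were used. Alternatives were other thresholds, adjustments, level filters, member definitions and averages.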

Additional observations from a re-analysis of the deposited data

How the results depend on the processing

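The count of 0 called members was the same under 10 alternatives (other members, level filters, re-centring, adjusted p under 0.1, adjustment over genes above the lowest level or at or above the median level, and Bonferroni correction). At an unadjusted p under 0.1 the count was 1, the pseudogene Rps4y2, against 0 at 0.05, where 6 other alternatives also gave 0. The smallest unadjusted p of any member was 0.091 by the authors' deposited table. Apart from the unadjusted threshold of 0.1, these settings could therefore hardly have given another count, and their agreement adds no support. The median log2 fold change lay between -0.05 and 0.01 under 11 alternatives, and the share below 0 between 53.3% and 56.3% under 6, all shifts smaller than the approximate error of a gene (0.30) or 10 percentage points. The alternative at log2 CPM 4 to 10 was chosen after seeing the data. The sign of the median was positive for the small subunit (0.01) and for the mean weighted by CPM (0.01), and negative in the other 9. No paired analysis was possible because no library has values of its own here, and leaving out each replicate was not run for the same reason. At the median approximate error of a well-counted gene, a 1.5-fold difference would have reached an unadjusted p of 0.05 and a 2.28-fold difference a call.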

Other observations

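The mitochondrial ribosomal proteins, encoded in the nucleus and imported, were also near 0. Of 76 genes above the lowest level, 39 were above and 37 below 0, with a median log2 fold change of 0.01 computed from the authors' deposited table, 0 called and 3 at an unadjusted p under 0.05. Of 85 nuclear genes of oxidative phosphorylation, 45 were above and 40 below 0, with a median of 0.04, and 1 had an unadjusted p under 0.05. Of 40 proteasome subunits, 15 were above and 25 below 0, with a median of -0.07, and 1 had an unadjusted p under 0.05. The shares under 0.05 were 3.95% for the mitochondrial ribosomal proteins, 1.18% for oxidative phosphorylation and 2.5% for the proteasome. Over all genes above the lowest level the share was 6.35%, and 0.155% of all symbols were called. The numbered pseudogenes Rps19-ps3 and Rpl34-ps1 had log2 fold changes of -0.53 and 1.10 by the authors' deposited table (p = 0.482 and 0.609), at mean levels of -0.27 and -2.42 log2 CPM.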
